A study of Mus musculus with 38 samples.

Results

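The oxidative phosphorylation subunit genes were taken as the rows of the deposited expression table whose symbol begins with Nduf followed by a, b, c, s or v, with Uqcr, with Cox and a digit from 4 to 8, or with Atp5, together with Sdha, Sdhb, Sdhc and Sdhd. This choice used symbols only and found 88 of 13260 genes. They comprised 7 core and 28 accessory subunits of complex I, 4 subunits of complex II, 8 of complex III, 11 of complex IV with 5 further tissue or condition isoforms, and 15 of complex V. The remaining 10 were matched by their symbol without being subunits, namely 7 assembly factors of complex I (Ndufaf1 to Ndufaf7), the supercomplex factor Cox7a2l, and Atp5s and Atp5sl. All 88 were matched to RefSeq, on 19 chromosomes of GRCm38 with at most 9 on any of them. The 13 subunits encoded by the mitochondrial genome were not analysed here, and a list of them matched 0 genes of the table.

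Oxidative phosphorylation is carried out in the inner mitochondrial membrane. Complex I takes electrons from NADH and complex II takes them from succinate, complex III passes them to cytochrome c, complex IV hands them to oxygen, and complex V uses the proton gradient that results to make ATP. Several subunits of complex IV exist as a widely expressed form and a second form that is restricted to certain tissues or to low oxygen. Cox6a2 is known as the form of heart and skeletal muscle, Cox4i2 as a form of lung and of low oxygen, and Ndufa4l2 as a target of the hypoxia-inducible factor that resembles the complex IV subunit Ndufa4.

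The RNA came from C57Bl/KaLwRijHsd mice, 8 to 10 weeks old, given PBS vehicle (healthy) or 5TGM1-GFP cells (myeloma-bearing) intravenously and studied on day 23. 5TGM1-GFP cells are a transplantable murine myeloma line marked with green fluorescent protein, so all myeloma cells here derive from 1 line. From the bone lining, endothelial cells (EC, CD31+), stromal progenitors (SP, Sca1+ALCAM-) and osteoprogenitors (OP, ALCAM+Sca1-) were sorted from healthy and from myeloma-bearing mice, with 5 libraries in each EC and SP group and 4 in each OP group. GFP+ myeloma cells (MM) were sorted from the bone lining and from the central marrow, with 5 libraries each. Every library held 100 cells amplified by SmartSeq2, and the 38 libraries are named here by the letter in their code, which is not stated to be a single mouse. P-values therefore measure the spread between libraries, part of which may be technical. In such sorted pools, fewer cells that express a gene and less RNA per cell cannot be told apart.

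The sequences that separate the paired isoforms of complex IV are shown first, since the members with the largest differences below are among them. For each pair the last 120 coding bases before the stop codon are printed from the GENCODE transcripts on GRCm38, with capitals for bases that are the same in both genes when counted back from the stop codon. Cox6a1 lies at chr5:115345652-115348958 and Cox6a2 at chr7:128205435-128206366, Ndufa4 at chr6:11900372-11907450 and Ndufa4l2 at chr10:127509274-127517154, and Cox4i1 at chr8:120668225-120674209 and Cox4i2 at chr2:152753916-152765039.
Cox6a1: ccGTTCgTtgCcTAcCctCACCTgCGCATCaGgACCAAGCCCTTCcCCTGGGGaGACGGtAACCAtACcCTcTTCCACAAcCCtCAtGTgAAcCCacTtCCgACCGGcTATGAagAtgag
Cox6a2: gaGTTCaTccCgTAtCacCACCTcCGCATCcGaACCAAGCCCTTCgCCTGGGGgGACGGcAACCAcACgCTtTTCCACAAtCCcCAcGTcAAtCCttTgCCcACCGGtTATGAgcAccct
Ndufa4: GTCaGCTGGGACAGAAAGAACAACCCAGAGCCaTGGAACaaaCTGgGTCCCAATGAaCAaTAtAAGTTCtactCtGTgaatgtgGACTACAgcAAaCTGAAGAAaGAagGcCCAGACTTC
Ndufa4l2: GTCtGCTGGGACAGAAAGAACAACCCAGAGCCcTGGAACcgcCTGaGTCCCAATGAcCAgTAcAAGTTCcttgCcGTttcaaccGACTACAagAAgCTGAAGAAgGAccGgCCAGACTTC
Cox4i1: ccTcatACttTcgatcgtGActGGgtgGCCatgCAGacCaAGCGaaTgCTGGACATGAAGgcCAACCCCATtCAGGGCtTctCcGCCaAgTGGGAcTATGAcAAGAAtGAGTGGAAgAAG
Cox4i2: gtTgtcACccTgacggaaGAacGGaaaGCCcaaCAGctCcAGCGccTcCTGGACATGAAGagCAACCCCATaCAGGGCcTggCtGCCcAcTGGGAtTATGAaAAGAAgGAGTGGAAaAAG
The pairs shared 86, 92 and 79 of these 120 bases. The longest run of identical bases was 12 in Cox6a1 and Cox6a2, 28 in Ndufa4 and Ndufa4l2, and 12 in Cox4i1 and Cox4i2, each shorter than the 50 bases of a read.

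Values are RPKM, reads scaled to gene length and to a library size, so levels can be compared between genes of a library. The steps of the deposited values show that this size was the reads on genes times a further factor, set here to a geometric mean of 1 over the libraries, of 1.31 to 1.6 in MM, 0.639 to 1.19 in EC, 0.627 to 0.885 in SP and 0.844 to 0.98 in OP. Every RPKM in MM was thus divided by a larger factor than in any niche library, and how the factor was made is not given in the sources used here. Library totals on genes ran from 9735031 to 34883291 reads. Between 4501 and 7805 genes were above 1 RPKM in an EC library, against 6449 to 8532 in SP, 6715 to 9096 in OP and 7755 to 8474 in MM. The 7 endothelial markers summed to 2280 to 4730 RPKM in EC libraries and at most 35.2 RPKM elsewhere, and 5 of 6 myeloma markers in the table summed to 3720 to 10300 RPKM in MM and at most 452 RPKM elsewhere. The 7 osteoprogenitor markers summed to 16800 to 78300 RPKM in OP and 10000 to 33600 RPKM in SP, and without Spp1 to 10300 to 69500 RPKM and 924 to 3360 RPKM, with no overlap. EC libraries I and J of myeloma-bearing mice stood apart, with 6350 and 6950 RPKM for this list against 26.8 to 525 RPKM in the other EC libraries, of which Spp1 made up 5980 and 6300 RPKM. EC library L of healthy mice had the fewest genes above 1 RPKM and the highest values of Ndufa8 and Cox5a among EC. SP libraries L of healthy and E of myeloma-bearing mice held 7230 and 8060 RPKM of the 4 neutrophil markers in the table. Of 9 erythroid markers only Alas2 was in the table, at 0 to 14.3 RPKM. Macrophage and osteoclast markers (6 of 8 in the table) summed to 170 to 902 RPKM in MM, of which Cd68 alone made up 168 to 895 RPKM while Csf1r, C1qb and Emr1 had medians of 0, and 0.876 to 626 RPKM in the niche libraries. The 6 stromal markers summed to 1110 to 3110 RPKM in SP, 2720 to 8970 RPKM in EC, where Ly6a is also expressed, and at most 38.1 RPKM in MM.

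The members were among the more abundant transcripts of every library. The median RPKM over the 38 libraries was higher than that of the median gene in 84 of 88 members, and the median of these medians was 257 RPKM against 2.11 RPKM over all genes. A read was found in every library for 74 members, while 14 were listed at 0 in at least 1 library. Cox6b2, a form known from testis, was listed at 0 in 19 libraries and reached 121 RPKM, and Cox7a1, a form of muscle, was listed at 0 in 22 libraries and reached 59.0 RPKM. All 88 members passed the filter of more than 1 RPKM in at least 4 of the 38 libraries.

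The level of the members followed the cell type. Their median log2(RPKM + 1) per library averaged 8.53 ± 0.18 (SD, n = 10) in MM, 7.93 ± 0.40 (n = 10) in EC, 7.76 ± 0.31 (n = 10) in SP and 7.44 ± 0.31 (n = 8) in OP. MM libraries ran from 8.25 to 8.86 and overlapped only with the upper EC libraries (7.50 to 8.52), since SP ended at 8.24 and OP at 7.97. The ranges of EC, SP and OP overlapped each other. Over all 12683 genes that passed the filter the same median was 2.15 ± 0.14 in MM, 1.19 ± 0.82 in EC, 1.94 ± 0.49 in SP and 2.25 ± 0.43 in OP. The members together took 9.83% to 12.5% of the summed RPKM of an MM library, 4.81% to 9.08% in EC, 2.85% to 4.51% in SP and 2.74% to 5.25% in OP.

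**Figure D1:**
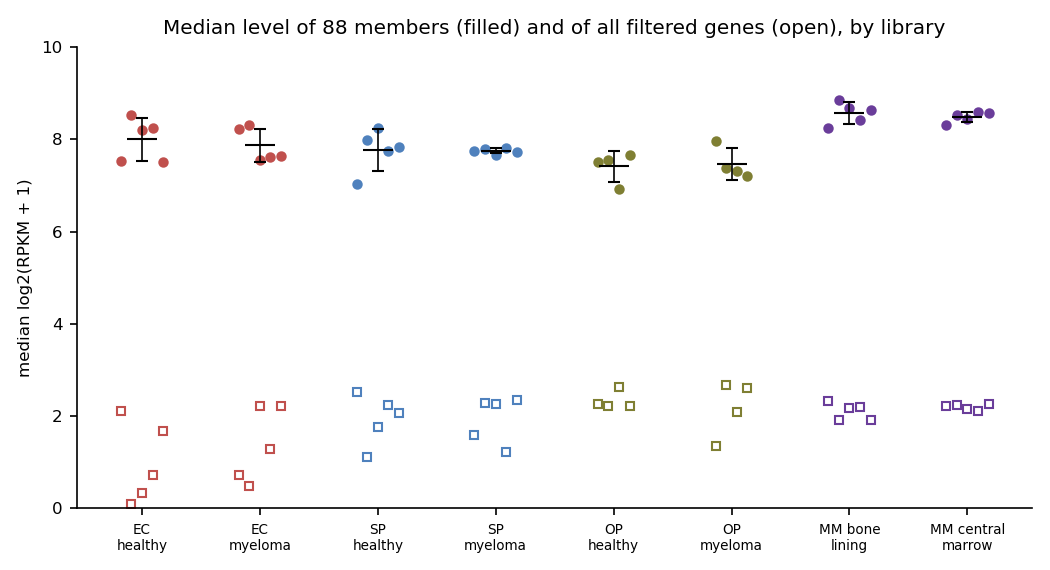
Median log2(RPKM + 1) of the 88 members (filled circles, with mean and SD as bars) and of the 12683 genes that passed the filter (open squares) in each of the 38 libraries, by group. The 10 MM libraries sit between 8.25 and 8.86, and the 8 OP libraries between 6.93 and 7.97.

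By the median over the libraries of a cell type, 63 of 88 members (71.6%) were highest in MM, 13 in EC, 10 in SP and 2 in OP, and 59 were lowest in OP. Over all filtered genes 39.1% were highest in MM, 22.2% in EC, 18.2% in SP and 20.5% in OP. The share of all genes that were lowest in OP was not computed, so the 59 members have no background to be read against. Replicate spread was also smallest in MM: the median SD of a member within a group was 0.22 and 0.44 on the log2 scale in the MM groups and 0.52 to 0.98 in the niche groups, and over all genes it was 0.41 to 0.60 and 0.98 to 1.42.

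The cell types were compared by limma with all 38 libraries in the fit, each type being the mean of its 2 groups, and a gene was called if its p, adjusted by Benjamini-Hochberg, was below 0.1 and its log2 difference exceeded 1 in size. That fit estimates 1 residual variance per gene over all groups, although replicate spread was smaller in MM. P-values between niche types may therefore be too small. Against OP, 48 of 88 members were called higher in MM (54.5%, against 19.9% of all genes) and 2 lower (20.1% of all genes were lower). Against SP, 28 were higher (31.8%, against 22.5% of all genes) and 2 lower (against 19.3%). Against EC, 19 were higher (21.6%, against 26.3% of all genes, so that the share of members was below the background) and 1 lower (against 16.9%). The median difference of the members was 1.17, 0.78 and 0.66 on the log2 scale against OP, SP and EC, while that of all genes was 0.09, 0.12 and 0.24. The difference was positive in 82, 75 and 71 of 88 members (93.2%, 85.2% and 80.7%, against 53%, 53.6% and 57.2% of all genes). When every library was rescaled to the same sum of RPKM, the median of all genes rose to 0.38, 0.57 and 0.48 and the members called higher to 69, 67 and 44 (78.4%, 76.1% and 50%, against 28.6%, 34.8% and 33.5% of all genes). With values scaled by the reads of the library alone, an alternative chosen after seeing the data that takes the factor above out, they were 75, 72 and 49 (85.2%, 81.8% and 55.7%, against 32.9%, 38.8% and 36.4%), and the median of the members was 1.84, 1.66 and 1.18 where that of all genes was 0.54, 0.69 and 0.57. The sums of RPKM ran from 395859 to 593372 RPKM in MM, 492085 to 1020858 in EC, 631588 to 890762 in SP and 574726 to 737509 in OP. With libraries of myeloma-bearing mice only, 44, 30 and 25 members were higher (50%, 34.1% and 28.4%, against 16.3%, 19.6% and 21.4% of all genes). Against EC the share of members was thus below that of all genes with the values as deposited and above it in these alternatives, but without the EC libraries I and J it stayed below (20 members, 22.7%, against 25.6%). The 3 comparisons share the MM libraries.

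The members called higher in MM than in each of the 3 niche types numbered 12 (13.6%, against 12.8% of all genes), and 1 was lower in each, Ndufa4l2 (against 7.65% of all genes). The 12 were Cox6a2, Ndufa4, Cox5a and Cox7c of complex IV, Atp5b, Atp5g1 and Atp5g3 of complex V, Ndufb6, Ndufb11 and Ndufab1 of complex I, the Rieske protein Uqcrfs1 of complex III, and the assembly factor Ndufaf4. In 3 members every MM library lay above every niche library (3.41%, against 2.29% of all genes), and in 0 members below (against 1.68%). These 3 were Cox6a2, Atp5b and Atp5g1.

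**Figure D2:**
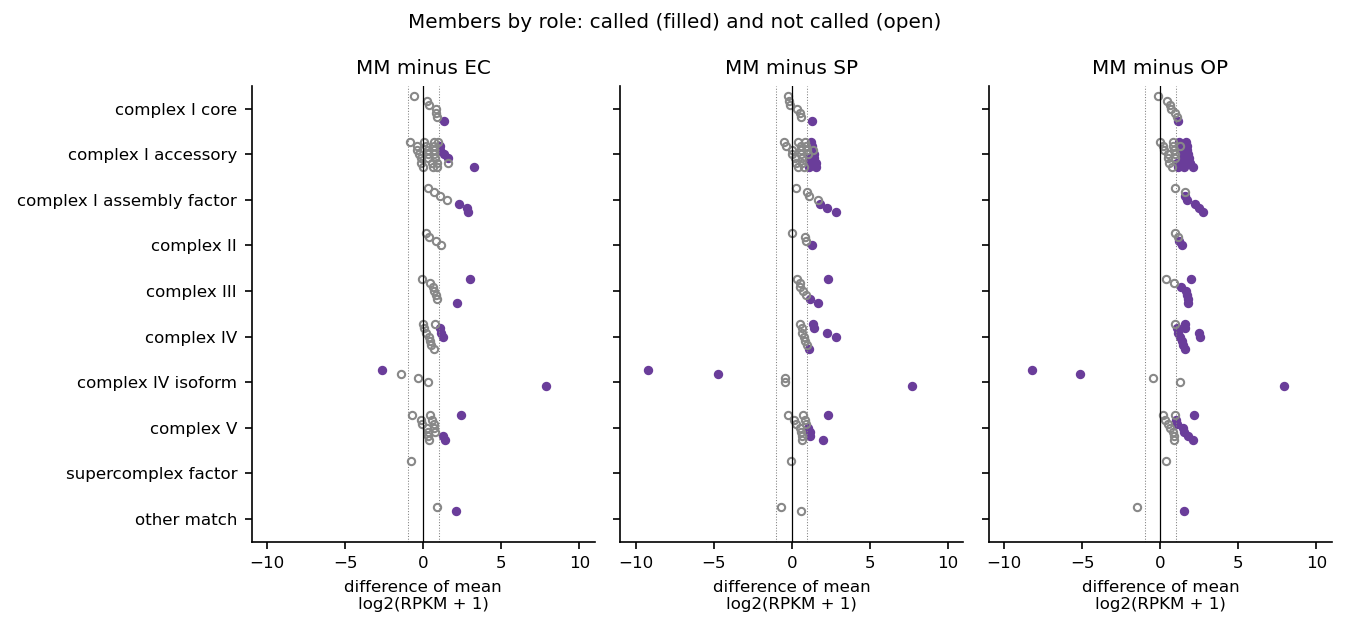
Difference of mean log2(RPKM + 1) between MM and EC, SP or OP for each member, by its role. Filled circles passed both thresholds, open circles did not, and dotted lines stand at 1 and -1. The isoforms of complex IV lie at both ends, from -9.24 to 7.92, and most subunits lie to the right of 0.

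Cox6a2 had the largest positive difference of all members in each comparison of MM with a niche type. In MM of the bone lining its values were 189.6, 246, 263, 321 and 502.5 RPKM, and in MM of the central marrow 176, 221.5, 240.0, 285.5 and 307 RPKM, from 2401 to 5087 reads per library. All 28 niche libraries lay between 0 and 0.845 RPKM, with 0 to 12 reads, and 11 of them held no read. The groups did not overlap. The difference was 7.87 (standard error 0.28, limma adjusted p = 1.73e-23) from EC, 7.72 from SP and 7.92 from OP, on the log2(RPKM + 1) scale, which understates the change of a gene near 0. Its widely expressed partner Cox6a1 was the more abundant form in every library, at 1815 to 3175 RPKM (median 2297) in MM, 1222 to 2557 RPKM (median 1611) in EC, 755 to 1487 RPKM (median 1109) in SP and 533 to 1094 RPKM (median 772) in OP. Cox6a2 thus made up 7.77% to 14.5% of the sum of both forms in MM (median 9.91%) and at most 0.0881% in a niche library.

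Ndufa4l2 showed the opposite order, being abundant in SP and OP and near 0 in MM. In SP of healthy mice Ndufa4l2 stood at 711, 847, 894, 1035 and 1165 RPKM and in SP of myeloma-bearing mice at 152, 757, 905, 1009 and 1015 RPKM. OP held 350.1, 466, 535 and 554 RPKM in healthy and 247, 279, 354 and 371 RPKM in myeloma-bearing mice. All 10 MM libraries were at 0 to 0.824 RPKM, with 0 to 17 reads, and no SP or OP library came near them. EC libraries were scattered, at 0.118, 1.46, 2.18, 64.2 and 194.5 RPKM in healthy and 0.167, 0.571, 0.864, 34.7 and 69.8 RPKM in myeloma-bearing mice. The difference of MM was -9.24 (standard error 0.70, limma adjusted p = 4.99e-14) from SP, -8.23 from OP and -2.64 (standard error 0.70, limma adjusted p = 0.00226) from EC, and that of EC from SP was -6.60 (standard error 0.70, limma adjusted p = 8.36e-10).

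Ndufa4 itself, a subunit of complex IV that was first assigned to complex I, was highest in MM, at 2321 to 4979 RPKM (median 3227), then in EC, at 808.5 to 2488 RPKM (median 1492), and was lower in OP, at 354 to 921 RPKM (median 633), and SP, at 344 to 681 RPKM (median 472). MM exceeded SP by 2.83 (standard error 0.19, limma adjusted p = 2.76e-15), OP by 2.52 and EC by 1.13. In SP, Ndufa4l2 made up 21.9% to 74.7% of the sum of both genes (median 66.2%) and in OP 21.2% to 61.0% (median 38.2%). The share was at most 7.54% in EC and at most 0.0302% in MM.

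Cox4i2 was likewise highest in SP and OP. Its values were 129.9, 161, 258, 259.6 and 339 RPKM in SP of healthy and 4.96, 68.7, 215, 264 and 406 RPKM in SP of myeloma-bearing mice, 225, 226, 271 and 324 RPKM in OP of healthy and 59.7, 173, 174 and 208 RPKM in OP of myeloma-bearing mice. In MM it stood at 0, 0.0539, 4.48, 6.73 and 8.5 RPKM in the bone lining and 2.13, 2.54, 10.9, 12.3 and 28.8 RPKM in the central marrow, so that all but 1 SP library (I of myeloma-bearing mice) and all OP libraries lay above every MM library. EC held 0 to 325 RPKM with 5 of 10 libraries below 1 RPKM. The difference of MM was -5.13 (standard error 0.93, limma adjusted p = 2.29e-05) from OP and -4.76 from SP, and that of EC from SP was -4.41 (standard error 0.87, limma adjusted p = 0.000153). Cox4i1, the widely expressed form, exceeded Cox4i2 in every library, and the share of Cox4i2 in the sum of both reached 18.2% in SP, 32.6% in OP, 12.1% in EC and 1.17% in MM.

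**Figure D3:**
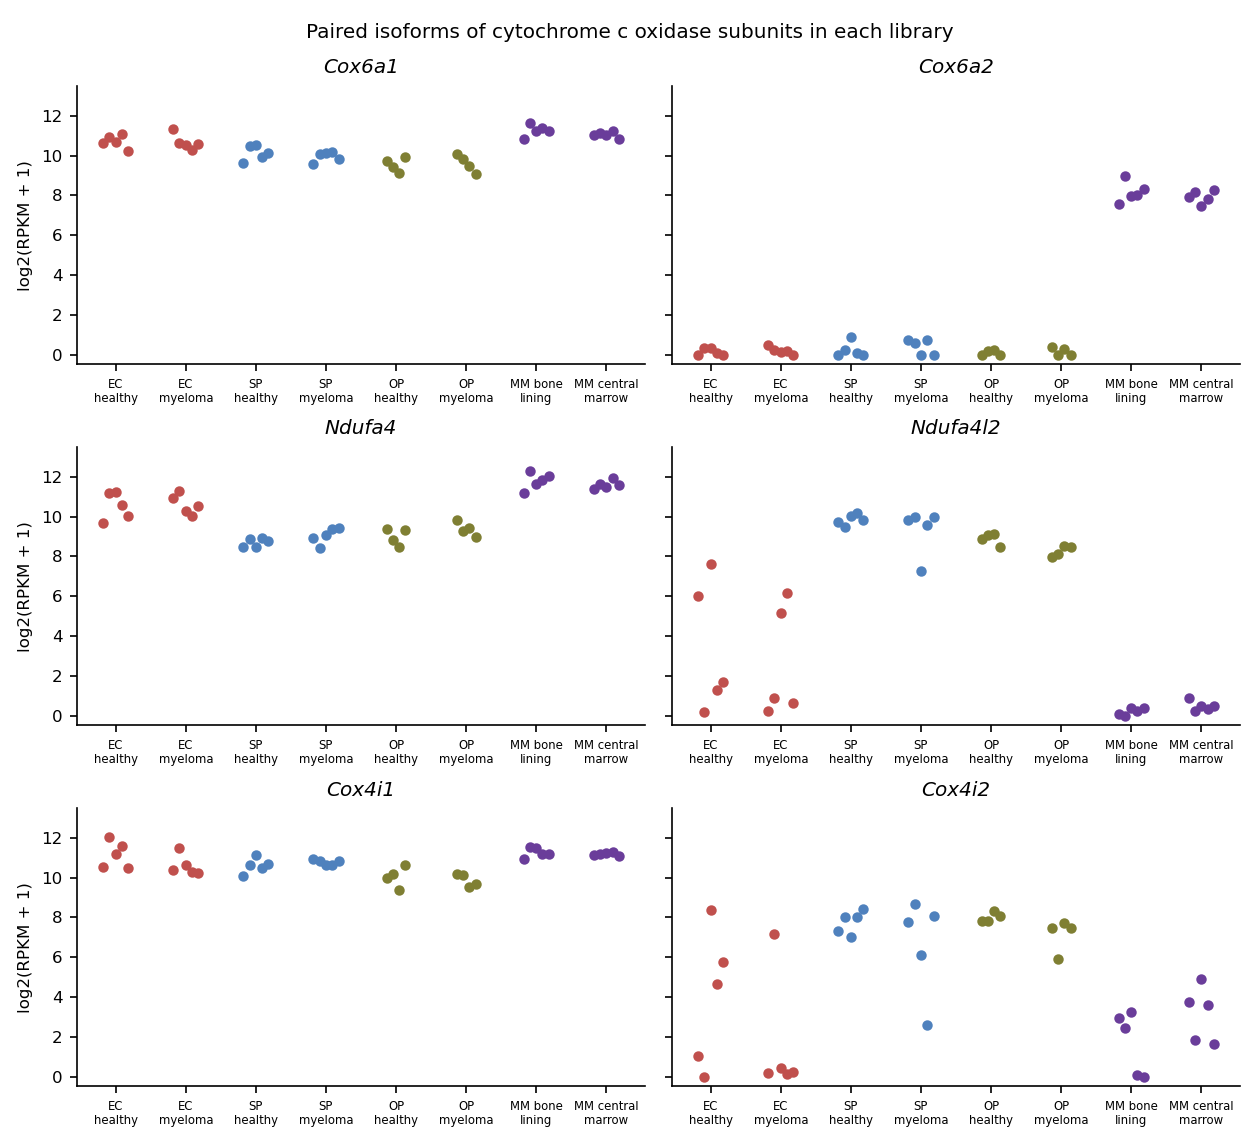
log2(RPKM + 1) of 3 widely expressed subunits (left) and their partners (right) in each of the 38 libraries, by group, on a shared vertical scale. Cox6a2 stands at 176 to 502.5 RPKM in MM and at most 0.845 RPKM elsewhere, whereas Ndufa4l2 is at 152 to 1165 RPKM in SP, 247 to 554 RPKM in OP and at most 0.824 RPKM in MM.

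The EC libraries that stood apart differed in these forms. Library I held 69.8 RPKM of Ndufa4l2 and 0.102 RPKM of Cox4i2, and library J 0.571 and 0.159 RPKM, whereas healthy library M, with 33.4 RPKM of the osteoprogenitor list, held 194.5 and 325 RPKM. The part of osteoprogenitor RNA in these values was not tested. The remaining isoforms gave no call in any comparison of cell types. Cox6b2 reached at most 5.97% of the sum with Cox6b1, and Cox7a1 at most 8.16% of the sum with Cox7a2.

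Among the 11 widely expressed subunits of complex IV, 10 were called higher in MM than in OP, 5 higher than in SP and 3 higher than in EC (90.9%, 45.5% and 27.3%, the last near the 26.3% of all genes), with median differences of 1.45, 0.963 and 0.505. The exception against OP was Cox6c, with a difference of 0.93. Cox5a, a nuclear-encoded structural subunit, differed from SP and OP by more than any of them but Ndufa4, at 866 to 1406 RPKM (median 1107) in MM, 119 to 884 RPKM (median 495) in EC, 95.3 to 363 RPKM (median 252) in SP and 118 to 459.7 RPKM (median 185) in OP. It exceeded OP by 2.46 (standard error 0.30, limma adjusted p = 1.3e-08), and 1 EC library reached the range of MM. Of its 50-base windows 32% also occur in other annotated genes. Cox4i1, the widely expressed form of subunit 4, was at 1960 to 3025 RPKM (median 2332) in MM and 671 to 1578 RPKM (median 1069) in OP, a difference of 1.27.

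Complex V showed 7 of 15 subunits higher in MM than in OP, 5 higher than in SP and 3 higher than in EC (46.7%, 33.3% and 20%, where all genes gave 19.9%, 22.5% and 26.3%, so that the share against EC was below the background). Atp5b, the catalytic beta subunit at chr10:128083307-128090388, was at 373, 420.4, 476, 549.8 and 829 RPKM in MM of the bone lining and 376, 377, 420.4, 445 and 456 RPKM in MM of the central marrow. Niche libraries ran from 42.5 to 339 RPKM, so the ranges did not overlap, and the difference was 1.77 (standard error 0.25, limma adjusted p = 2.45e-07) from OP and 1.24 from EC. It was 1.17 from SP, or 0.80 (limma adjusted p = 0.0293), below the fold threshold, with myeloma-bearing mice only. Atp5a1, the alpha subunit that pairs with it, was at 101 to 239 RPKM (median 152) in MM and 34.1 to 471 RPKM (median 111.5) in EC, and its differences of 0.45, 0.13 and 0.27 from EC, SP and OP did not pass the test.

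The membrane ring of complex V is built from subunit c, which 3 genes encode with the same mature protein. Atp5g1 was at 85.9, 143, 147.5, 201 and 241 RPKM in MM of the bone lining and 137, 147, 147.5, 167.5 and 173 RPKM in MM of the central marrow, above all niche libraries (10.7 to 74.9 RPKM). Its difference was 2.41 (standard error 0.32, limma adjusted p = 8.35e-08) from EC, 2.30 from SP and 2.17 from OP. Atp5g3, the main form in every library, was at 516 to 1006 RPKM (median 609) in MM against 109.5 to 537 RPKM (median 270.2) in EC, 74.4 to 244 RPKM (median 168) in SP and 57.5 to 306 RPKM (median 168) in OP. Atp5g2 stayed at or below 3.52 RPKM and is among the complex V subunits called higher in MM than in SP. That call fell below the fold threshold without letter C, D, E, G, L, N or O (0.872 to 0.99). It did so too without the SP libraries high in neutrophil markers (0.905). The share of Atp5g1 in the sum of the 3 was 7.86% to 24.0% in MM and 3.84% to 39.0% in the niche libraries. Of the 50-base windows of Atp5g1, Atp5g2 and Atp5g3, 11.6%, 14.8% and 0% also occur in another annotated gene.

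In complex III, 6 of 8 subunits were higher in MM than in OP, 3 higher than in SP and 2 higher than in EC (75%, 37.5% and 25%, the last near the 26.3% of all genes). Uqcrfs1, the Rieske iron-sulfur protein, was at 245 to 579 RPKM (median 372) in MM, 0.737 to 174 RPKM (median 99.4) in EC, 1.17 to 351 RPKM (median 94.6) in SP and 40.5 to 282 RPKM (median 90.8) in OP. MM exceeded EC by 2.97 (standard error 0.76, limma adjusted p = 0.00177) and SP by 2.30. The difference from OP of 1.94 (standard error 0.81, limma adjusted p = 0.057) was no longer called without the libraries of letter G (1.79, adjusted p = 0.159), I (1.83, adjusted p = 0.129), J (1.87, adjusted p = 0.132) or O (1.78, adjusted p = 0.112), nor with myeloma-bearing mice only (1.74, adjusted p = 0.207). Uqcrc1, a core protein, was at 109 to 329 RPKM (median 178) in MM and 0.344 to 265.5 RPKM (median 87) in EC, and MM exceeded EC by 2.18 (standard error 0.63, limma adjusted p = 0.00481), or by 1.22 (adjusted p = 0.237) with myeloma-bearing mice only.

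Complex II links the chain to the citric acid cycle. Of its 4 subunits, 2 were called higher in MM than in OP, 1 higher than in SP and 0 higher than in EC (50%, 25% and 0%, where all genes gave 19.9%, 22.5% and 26.3%), though all 4 differences were positive in each comparison. Sdha, the flavoprotein, was at 37.3 to 85 RPKM (median 54.4) in MM and 7.14 to 68.1 RPKM (median 22.8) in OP, a difference of 1.36 (standard error 0.43, limma adjusted p = 0.0111). Sdhb, the iron-sulfur subunit, was at 425 to 994 RPKM (median 539) in MM, 159 to 1882 RPKM (median 458) in EC, 139.9 to 692 RPKM (median 352) in SP and 154 to 490.2 RPKM (median 307) in OP, and gave no call.

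Of the 7 core subunits of complex I, 1 was called in each comparison (14.3%, where all genes gave 26.3% higher than in EC, 22.5% than in SP and 19.9% than in OP), namely Ndufs7 against EC (1.34) and Ndufs8 against SP (1.32) and OP (1.15), and the median differences were 0.83, 0.31 and 0.66. Ndufs1, the largest subunit, was at 17 to 50.6 RPKM (median 26.5) in MM and 0.0972 to 163 RPKM (median 34.8) in EC. Ndufv1, which binds NADH, was at 73.8 to 171 RPKM (median 82.9) in MM and 0.0707 to 196 RPKM (median 122) in EC. Neither gene passed the test between MM and a niche type. Of the 28 accessory subunits, 15 were higher in MM than in OP, 9 higher than in SP and 5 higher than in EC, and none was lower. These are 53.6%, 32.1% and 17.9%, where all genes gave 19.9%, 22.5% and 26.3%.

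Ndufa10, an accessory subunit, showed a large difference from EC of 3.23 (standard error 0.88, limma adjusted p = 0.00295), with values of 46.1 to 202 RPKM (median 73.6) in MM and 0.0471 to 97.7 RPKM (median 12.8) in EC. Ndufab1, the mitochondrial acyl carrier protein that complex I also holds, was at 12.6 to 64 RPKM (median 33.5) in MM and 3.32 to 39.9 RPKM (median 11.5) in EC, with a difference of 1.35. The assembly factors of complex I had the highest median differences of any role, 1.52 from EC, 1.68 from SP and 1.71 from OP, and all 7 were positive in each comparison. Ndufaf4 was at 28.4 to 75.5 RPKM (median 49.8) in MM and 0 to 41.2 RPKM (median 6.99) in SP, a difference of 2.85 (standard error 0.63, limma adjusted p = 0.000381). Ndufaf7, a methyltransferase, exceeded EC by 2.90 (standard error 0.74, limma adjusted p = 0.00173), or by 1.87 (adjusted p = 0.116) with myeloma-bearing mice only. Ndufaf1 exceeded OP by 2.72 (standard error 1.02, limma adjusted p = 0.0352), which was lost without letter G (2.39, adjusted p = 0.107) or N (2.12, adjusted p = 0.107). Ndufaf6 exceeded OP by 2.47 (standard error 0.93, limma adjusted p = 0.0354), which was lost without letter I (1.92, adjusted p = 0.156) and with myeloma-bearing mice only (2.52, adjusted p = 0.105).

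Genes that work beside the complexes were read from lists chosen by function, and their shares are to be read against the 26.3%, 22.5% and 19.9% of all genes called higher in MM than in EC, SP and OP. Of 76 mitochondrial ribosomal proteins, which translate the subunits encoded in the mitochondrion, 49, 41 and 42 were called higher (64.5%, 53.9% and 55.3%), with median differences of 1.66, 1.44 and 1.51, and 3, 1 and 0 were lower. Of 36 assembly factors of complexes I to V outside the member list, 15, 13 and 10 were higher (41.7%, 36.1% and 27.8%), with median differences of 1.12, 0.995 and 0.675, and 1 was lower in each. The 16 enzymes of the citric acid cycle and pyruvate dehydrogenase gave 6, 5 and 3 higher (37.5%, 31.2% and 18.8%, the last near the background) and 0, 1 and 0 lower. Of 13 regulators of mitochondrial genes tested, 8, 6 and 4 were higher (61.5%, 46.2% and 30.8%) and none was lower.

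Among these regulators, Tfam, which packages and transcribes mitochondrial DNA, was at 16 to 47.8 RPKM (median 28.8) in MM, 0 to 34.3 RPKM (median 3.21) in EC, 0.0299 to 19.9 RPKM (median 4.18) in SP and 0.569 to 23.5 RPKM (median 9.62) in OP. MM exceeded EC by 2.64 (limma adjusted p = 0.00194) and SP by 2.56 (limma adjusted p = 0.00265). Polrmt, the mitochondrial RNA polymerase, exceeded OP by 2.10 (limma adjusted p = 0.000899), from a low level of 0 to 1.12 RPKM (median 0.0145). Nrf1, Gabpa and Esrra, regulators of nuclear genes for mitochondria, were low, with medians of 0 to 7.44 RPKM in the cell types, and of their 9 differences from the niche types only that of Nrf1 from SP was called, at 1.43 (limma adjusted p = 0.0449).

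A list of 9 tested genes around the complexes held the inner membrane carriers of ADP, ATP and phosphate (Slc25a3, Slc25a4, Slc25a5), the outer membrane channels (Vdac1, Vdac2, Vdac3), cytochrome c (Cycs), Cyc1 and the ATP synthase inhibitor Atpif1. In each comparison 3 were called higher in MM (33.3%), namely Cyc1, Vdac1 and Vdac3 against EC, Cyc1, Atpif1 and Slc25a5 against SP, and Cyc1, Atpif1 and Vdac3 against OP. In each comparison 1 was called lower, which was Slc25a4. Slc25a4, the ADP/ATP carrier known from heart and muscle, was at 0.111, 0.128, 0.203, 0.248 and 0.319 RPKM in MM of the bone lining and 0.0422, 0.131, 0.201, 0.255 and 0.318 RPKM in MM of the central marrow. In the niche types it was at 89.8 to 567 RPKM (median 385) in EC, 309 to 775 RPKM (median 524) in SP and 263 to 511 RPKM (median 386) in OP, with no overlap. The differences were -8.09 (limma adjusted p = 1.75e-23), -8.74 (limma adjusted p = 1.36e-24) and -8.29 (limma adjusted p = 6.74e-23). Slc25a5, the second ADP/ATP carrier, was at 335 to 965 RPKM (median 543) in MM and 13.1 to 353 RPKM (median 201) in SP, and MM exceeded SP by 1.86 (limma adjusted p = 6.76e-05), while its differences of 0.49 (limma adjusted p = 0.296) from EC and 0.87 (limma adjusted p = 0.0753) from OP were not called. Cyc1, a subunit of complex III that the symbol rule does not take, was called higher in MM than in all 3 niche types, by 1.76 from EC, 1.25 from SP and 1.43 from OP.

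**Figure D4:**
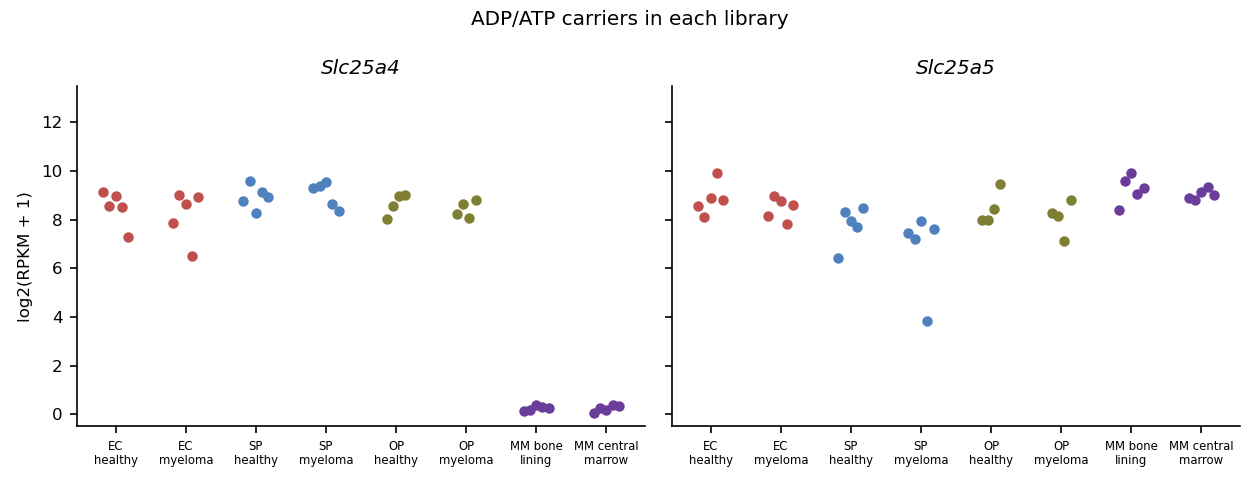
log2(RPKM + 1) of the ADP/ATP carriers Slc25a4 and Slc25a5 in each of the 38 libraries, by group. Slc25a4 lies at or below 0.319 RPKM in the 10 MM libraries and at 89.8 to 775 RPKM in the niche libraries, while Slc25a5 is present in all groups.

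Among the niche cells, members were more often called higher than lower in EC against OP, while the split against SP depended on the scaling. Against OP, 15 members were called higher in EC (17.0%, against 10.4% of all genes) and 4 lower (against 17.5%), with a median difference of 0.60 where that of all genes was -0.18. Without the EC libraries I and J these were 22 and 5 (25% and 5.68%, against 9.99% and 17% of all genes), and with myeloma-bearing mice only 9 and 3 (10.2% and 3.41%, against 7.54% and 10.5%). Ndufa8 and Ndufa3, accessory subunits of complex I, Uqcrb of complex III and Cox6b1 of complex IV were among them. Ndufa8 was at 563 to 2056 RPKM (median 750.4) in EC and 193 to 440.4 RPKM (median 241) in OP, a difference of 1.72 (standard error 0.28, limma adjusted p = 7.65e-06), without overlap. Uqcrb exceeded OP by 1.44, Cox6b1 by 1.36 and Ndufa4 by 1.39. Those called lower in EC than in OP were Ndufa4l2 (-5.59), Cox4i2 (-4.785), Atp5s (-3.57) and Uqcrc1 (-1.83).

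Against SP, 4 members were higher in EC (4.55%, against 9.97% of all genes) and 7 lower (against 15.5%). When every library had the same sum of RPKM this split turned to 17 higher and 3 lower (19.3% and 3.41%, against 12.7% and 12.2% of all genes), with values scaled by library reads alone to 20 and 3 (22.7% and 3.41%, against 13.2% and 11.9%), and without the EC libraries I and J it was 7 and 5 (7.95% and 5.68%, against 9.91% and 15.1%). Those higher were Ndufa4 (1.70), Ndufa3 (1.55), Ndufa8 (1.29) and Ndufc2 (1.07), of which Ndufc2 fell just below the fold threshold without letter C (0.96), I (0.97) or N (0.94). Beside Ndufa4l2 and Cox4i2, the lower ones were Atp5s, a coupling factor matched by its symbol, at 0 to 17 RPKM (median 0.0304) in EC and 0 to 67.9 RPKM (median 18.7) in SP (-2.79, standard error 0.79, limma adjusted p = 0.00746), and Uqcrc1, Ndufaf7, Ndufv2 and Ndufs7. The difference of Uqcrc1 was -1.82 (standard error 0.63, limma adjusted p = 0.0308), and its call was lost with equal RPKM sums (-1.42, adjusted p = 0.114), with library reads alone (-1.38, adjusted p = 0.123), with only EC and SP in the fit (-1.82, adjusted p = 0.103), with myeloma-bearing mice only (-0.41, adjusted p = 0.863) and without letter E (-1.43, adjusted p = 0.133), L (-1.27, adjusted p = 0.114) or N (-1.39, adjusted p = 0.118). Its difference from OP of -1.83 (standard error 0.66, limma adjusted p = 0.0392) was lost with only EC and OP in the fit (-1.83, adjusted p = 0.144), with myeloma-bearing mice only (-0.97, adjusted p = 0.597) and without letter E (-1.50, adjusted p = 0.112), G (-1.77, adjusted p = 0.102) or N (-1.30, adjusted p = 0.177).

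Few members differed between OP and SP. In OP, 0 members were called higher (against 4.9% of all genes) and 2 lower (2.27%, against 3.58%). At an unadjusted p below 0.05 there were 18 (20.5%, against 17.4% of all genes). The 2 were Sdha (-1.34, standard error 0.43, limma adjusted p = 0.0526), at 7.14 to 68.1 RPKM (median 22.8) in OP and 20 to 105 RPKM (median 64.3) in SP, and Uqcrc2, a core protein of complex III (-1.27, standard error 0.43, limma adjusted p = 0.0753), at 6.71 to 104.5 RPKM (median 51) in OP and 36.9 to 158 RPKM (median 93.7) in SP. Both groups of values overlapped. By voom-limma 1 member was called (against 1162 of 12683 genes). It was neither Sdha (-1.24, voom-limma adjusted p = 0.202) nor Uqcrc2 (-1.22, voom-limma adjusted p = 0.222). With only OP and SP in the fit the call of Sdha was lost (-1.34, limma adjusted p = 0.113). Without the libraries of letter D, I or N no member was called, with adjusted p of 0.203, 0.168 and 0.145 for Sdha (-1.14, -1.21 and -1.22) and 0.245, 0.16 and 0.199 for Uqcrc2 (-0.93, -1.19 and -1.10), nor was any called with equal RPKM sums or with library reads alone. Of 88 members 69 had a negative difference, with a median of -0.29 where that of all genes was 0.02. The difference was positive in 21.6% of members, against 52.2% of all genes.

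The question of the study was how myeloma alters the cells of the bone lining. In none of the 3 niche types was a member called between myeloma-bearing and healthy mice, which at 4 or 5 libraries per group does not show that levels were the same. At the same thresholds, the paper's voom-limma fit of read counts called more genes in each niche type than the fit here. Here voom-limma on the recovered reads called 4, 0 and 0 of all genes tested in EC, SP and OP. The shares of all genes below are those of the limma fit here. In EC, limma called 0 of 84 members tested (0% of all 7880 genes were called), 4 had an unadjusted p below 0.05 (4.76%, against 5.25% of genes), and voom-limma on the recovered reads called 0. In SP it was 0 of 85 (0% of 8747 genes), with 2 at an unadjusted p below 0.05 (2.35%, against 5% of genes) and 0 by voom-limma. In OP it was 0 of 83 (0.0115% of 8664 genes), with 3 at an unadjusted p below 0.05 (3.61%, against 4.87% of genes) and 0 by voom-limma. The median difference was -0.26 in EC, where that of all genes was 0.07 and 28 of 84 members were positive (33.3%, against 52.9% of all genes). It was 0.01 in SP with 45 of 85 members positive (52.9%, against 50%), and -0.02 in OP with 38 of 83 positive (45.8%, against 48.4%).

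Ndufv1 had the largest negative difference in EC. It stood at 109, 143, 151, 175 and 196 RPKM in healthy and at 0.0707, 10.4, 20.1, 37.5 and 136 RPKM in myeloma-bearing mice, so that the groups overlapped. The difference of -3.18 (standard error 1.00, limma adjusted p = 0.821) was called when all 38 libraries entered the fit (-3.18, standard error 0.668, limma adjusted p = 0.0169). The residual variance of that fit also draws on the MM libraries, whose spread was smaller. The largest positive difference was that of Ndufa9, an accessory subunit, at 0.0861, 0.218, 46.3, 81.7 and 166 RPKM in healthy and 21.2, 72, 162, 186.5 and 248.5 RPKM in myeloma-bearing mice (2.76, standard error 1.29, limma adjusted p = 0.925). In SP the extremes were Sdhc (1.19, standard error 0.56, limma adjusted p = 0.956), a membrane anchor of complex II, and Ndufaf6 (-1.97, standard error 1.15, limma adjusted p = 0.956). In OP they were Ndufs1 (1.98, standard error 0.98, limma adjusted p = 0.981) and Ndufaf1 (-2.58, standard error 1.30, limma adjusted p = 0.981).

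The change under myeloma was also compared between the niche types as an interaction over the 28 niche libraries. No member was called of 87 tested: 0 between EC and SP (0% of 11713 genes), 0 between EC and OP (0% of genes) and 0 between SP and OP (0.00854% of genes) by limma, with 4, 1 and 1 at an unadjusted p below 0.05 (4.6%, 1.15% and 1.15%, against 5.84%, 5.21% and 3.44% of genes) and 0 in each by voom-limma. The lists of assembly factors, carriers, citric acid cycle enzymes, regulators and mitochondrial ribosomal proteins held 0 called genes in each niche type and between the niches of MM by limma.

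The 2 sites of MM, bone lining and central marrow, were compared over 87 members. None was called (0.203% of 8857 genes were), 3 had an unadjusted p below 0.05 (3.45%, against 5.98% of genes), and voom-limma called 0. At the same thresholds the paper called fewer genes between these sites than the limma fit here. The differences were small, with a median of 0.06 and 63 of 87 positive (72.4%, against 49.2% of all genes), where the median of all genes was -0.01. The largest negative difference was that of Cox4i2 (-1.39, standard error 0.75, limma adjusted p = 0.855), with the values given above, and the groups overlapped.

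**Figure D5:**
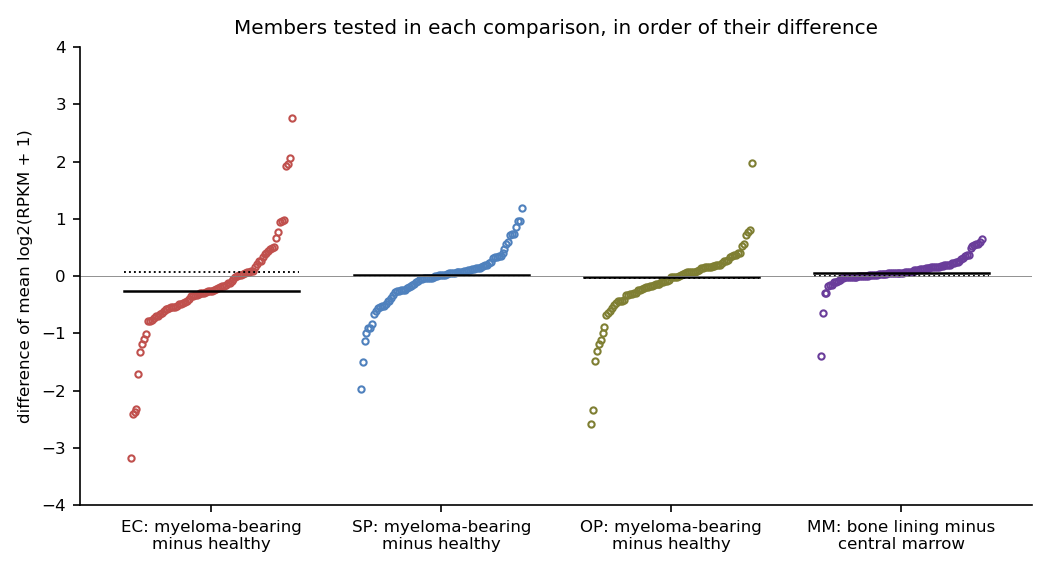
Difference of mean log2(RPKM + 1) for each member tested, in rising order within a comparison. Solid bars give the median of the members and dotted bars that of all genes tested. No point passed both thresholds, and EC shows the widest range, from -3.18 to 2.76, while the lowest point of MM is at -1.39.

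RefSeq promoter windows on GRCm38.p6, from 250 bases before to 50 after a start, were at hand for 73 of the 88 members. The letters CGCATGCG, the core of the NRF1 site, were found on either strand in 11 of them (15.1%, against 4.13% of the 10483 genes of the table with a window). CCGGAAG, an ETS site that GABPA can bind, was found in 17 (23.3%, against 19.5%), and AAGATGGCG, a YY1 site, in 8 (11%, against 3.42%). At least 1 of the 3 was held by 30 members (41.1%, against 25.2%). The hypoxia core ACGTG, chosen after the levels of Cox4i2 and Ndufa4l2 were seen, was found in 19 (26%, against 29%), but Cox4i2, Ndufa4l2 and Cox6a2 had no window and were not searched. Both strands were searched. In the windows below the first 3 motifs are in capitals, in the reverse complement where they lie on the other strand, and no 2 of them overlap. The windows are those of Atp5j (chr16:84834927-84835226, minus strand), a coupling subunit of complex V that held all 3, of Cox6a1 (chr5:115348909-115349208, minus strand) with an NRF1 core and an ETS site, of Ndufaf4 (chr4:24897833-24898132, plus strand) with an NRF1 core, and of Atp5b (chr10:128083057-128083356, plus strand), which held none.
Atp5j: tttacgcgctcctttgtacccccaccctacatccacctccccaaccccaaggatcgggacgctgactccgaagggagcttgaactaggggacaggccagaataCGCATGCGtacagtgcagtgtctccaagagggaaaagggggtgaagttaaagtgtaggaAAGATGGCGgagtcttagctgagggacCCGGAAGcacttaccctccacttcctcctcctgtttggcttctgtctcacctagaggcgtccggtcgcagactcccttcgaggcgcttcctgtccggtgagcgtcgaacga
Cox6a1: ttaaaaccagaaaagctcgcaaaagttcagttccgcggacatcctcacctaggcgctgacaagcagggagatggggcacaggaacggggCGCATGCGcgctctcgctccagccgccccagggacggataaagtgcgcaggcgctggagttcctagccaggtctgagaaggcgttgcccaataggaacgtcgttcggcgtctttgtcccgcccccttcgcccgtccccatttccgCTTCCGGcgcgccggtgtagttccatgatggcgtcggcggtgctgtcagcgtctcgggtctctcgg
Ndufaf4: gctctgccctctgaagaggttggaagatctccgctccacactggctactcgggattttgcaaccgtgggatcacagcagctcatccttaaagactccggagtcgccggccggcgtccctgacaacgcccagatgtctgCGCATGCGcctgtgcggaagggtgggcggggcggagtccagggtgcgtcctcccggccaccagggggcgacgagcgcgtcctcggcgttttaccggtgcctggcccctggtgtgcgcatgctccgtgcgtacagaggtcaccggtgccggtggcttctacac
Atp5b: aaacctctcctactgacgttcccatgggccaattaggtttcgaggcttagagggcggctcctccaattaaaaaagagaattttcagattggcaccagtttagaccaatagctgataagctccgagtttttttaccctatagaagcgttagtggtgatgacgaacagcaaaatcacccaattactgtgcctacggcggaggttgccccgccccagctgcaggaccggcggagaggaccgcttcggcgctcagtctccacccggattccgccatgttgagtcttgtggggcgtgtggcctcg
Of the 12 members called higher in MM than in all niche types, 11 had a window, and the letters of 1 of the 3 motifs were found in Ndufaf4 and in Ndufb6 only. A match describes letters in these windows and was not tested as a binding site.

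Sequence shared with other genes bears on some levels. For 42 members no 50-base window of the longest coding transcript occurs in another annotated gene, and for 15 more than 20% of the windows do. Atp5l shares 84.8% of its windows, Atp5h 47.9%, Uqcrb 43.4%, Ndufs3 39.7% and Atp5f1 38.7%, and featureCounts was run with default settings, which leave out reads that match several places. The levels of these genes may be understated to that extent. Cox6a2, Ndufa4l2 and Cox4i2 share 3.33%, 0% and 0%.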

How the data were processed

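RNA from 38 pools of 100 sorted cells was amplified by SmartSeq2 and sequenced as 50-base single reads. Per the labels and the study's methods, the authors aligned the reads with STAR 2.4.0 to GRCm38 (mm10), counted them per gene with featureCounts (Subread 1.4.5-p1), filtered genes on low counts (over 1 CPM in 4 samples or more), and used edgeR to compute the RPKM they deposited. Low RPKM values are whole multiples of 1 read, so reads were recovered for all 13260 genes (every value whole within 0.001), giving 9735031 to 34883291 reads per library. The same steps show that the authors' deposited RPKM were divided by library reads times a further factor, larger in MM than in the niche types, whose making is not given in the sources used here.

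Genes above 1 RPKM in at least 4 libraries of a fit were tested on log2(RPKM + 1) with limma 3.58.1 (R 4.3.3; eBayes with trend, Benjamini-Hochberg) and called at adjusted p below 0.1 and absolute log2 difference above 1. Comparisons between healthy and myeloma-bearing mice and between the sites of MM used only the libraries compared, cell types all 38 libraries in 8 groups, and interactions the 28 niche libraries. voom-limma on recovered reads and the other alternatives are given with the closing observations. The scripts were tested on simulated data. The members and gene lists were chosen with earlier results of these data known. The genes named were catalytic and core subunits, isoform sets, up to 8 called members per comparison (all called, or otherwise the 4 with the largest positive and the 4 with the largest negative difference), the extremes where none was called, and members at 0 in the greater part of the libraries or as many as not. Further genes, among them those called higher in MM than in all 3 niche types, were named after their values were seen. A result that the naming rule would give for 1 member is not reported here.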

Additional observations from a re-analysis of the deposited data

Results flagged for a closer look

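Libraries that lay far from the rest of their group by Dixon's test were sought in 176 groups of values, over 21 members and the library medians. The test singled out 15, where chance gives about 9. All values here are log2(RPKM + 1).

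The low-oxygen forms gave 3 of them. Cox4i2 was high in EC library E of myeloma-bearing mice at 7.18, where the nearest was 0.42, and low in OP library G of myeloma-bearing mice at 5.92. Ndufa4l2 was low in SP library G of myeloma-bearing mice at 7.26, where the nearest was 9.57. The same library was low in Atp5g3, at 6.24.

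In complex V, Atp5g1 was high at 6.25 and Atp5b low at 5.44 in OP library D of myeloma-bearing mice. Atp5g2, near 0 in most libraries, reached 1.95 in SP library M of healthy and 1.21 in SP library J of myeloma-bearing mice. Cox6a2 stood at 0.884 in the same SP library M, far below the MM libraries.

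In complexes I to III, Ndufv1 was low at 5.34 in OP library N of healthy mice and high at 7.43 in MM library G of the bone lining. Sdha was high at 6.01 in OP library G of myeloma-bearing mice and at 6.43 in MM library I of the bone lining. Uqcrfs1 was low at 0.797 in EC library L of healthy and at 0.861 in EC library D of myeloma-bearing mice.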

How the results depend on the processing

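No single named difference that was called changed its sign under the alternatives run, but the split of members between EC and SP, 4 higher and 7 lower, turned to 17 and 3 with equal RPKM sums, to 20 and 3 with library reads alone and to 7 and 5 without the EC libraries I and J. With an adjusted p and no minimum fold, members called were 44 between MM and EC, 51 between MM and SP, 26 between EC and SP, 39 between EC and OP and 6 between OP and SP (50%, 58%, 29.5%, 44.3% and 6.82%, against 46.9%, 45.6%, 27.4%, 29.7% and 8.81% of all genes in either direction). With every library at the same sum of RPKM they were 45, 69, 20, 23 and 0, and between MM and OP 71 (51.1%, 78.4%, 22.7%, 26.1%, 0% and 80.7%, against 49.2%, 50.7%, 25%, 27.7%, 8.36% and 47%). With values scaled by library reads alone, chosen after seeing the data, they were 50 between MM and EC, 74 between MM and SP, 77 between MM and OP, 23 between EC and SP and 0 between OP and SP (56.8%, 84.1%, 87.5%, 26.1% and 0%, against 51.5%, 54%, 50.2%, 25.1% and 8.06%). With myeloma-bearing mice only, 12 were called between EC and OP (13.6%, against 18.1%). By voom-limma on recovered reads, members called were 27 between MM and EC, 33 between MM and SP and 50 between MM and OP. They were 11 between EC and SP, 19 between EC and OP and 1 between OP and SP, neither Sdha nor Uqcrc2. Of 12683 genes, 7185, 6727, 5860, 3712, 4046 and 1162 were called. Without the SP libraries high in neutrophil markers, a setting chosen after seeing the data, 0 members were called higher in OP than in SP (against 4.49% of all genes). In that setting 1 was lower (1.14%, against 3.43%). With all 38 libraries in the fit, Ndufv1 was called between EC of myeloma-bearing and healthy mice. The share of all genes called in that setting is not given here. Leaving out each letter in turn gave 19 to 24 members called between MM and EC, 25 to 33 between MM and SP, 42 to 55 between MM and OP, 8 to 12 between EC and SP, 16 to 26 between EC and OP and 0 to 2 between OP and SP, while all genes gave 40.5% to 43.8%, 39.3% to 42.9%, 36.3% to 40.3%, 23.3% to 25.5%, 24.9% to 28.6% and 7.01% to 8.85%, and 0 members in every comparison of conditions, sites and interactions. The mean library median of subunits only was 8.30 in EC and 8.01 in SP of myeloma-bearing mice, 8.89 in MM of the bone lining and 8.80 in MM of the central marrow. With equal sums it was 7.46 in that SP group, 8.95 and 8.97 in MM. The cause of these shifts was not tested.

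Between the sites of MM no pairing by letter was seen: same-letter deviations correlated at -0.0488 to 0.067 over 8857 genes, and only D correlated best with its own letter. The niche libraries were not part of this check, which does not show whether a letter is a mouse. With a replicate block the members called were 0 between the sites of MM, 21 between MM and EC, 30 between MM and SP, 50 between MM and OP, 11 between EC and SP, 19 between EC and OP and 2 between OP and SP, and of all genes 43.4%, 42%, 40.1%, 25.7%, 28.2% and 8.75% in the last 6. The edgeR quasi-likelihood alternative was not run.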
